A study of Homo sapiens with 4 samples.

Results

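Internal m7G methylation of mRNA was compared on chromosomes 19 and 22, outside the ZNF genes, between HL60 cells and drug-resistant HL60/MX2 cells. A peak belonged to this set when it lay on chromosome 19 or 22 and its protein-coding gene, the one sharing the most exon bases with it on its strand, did not carry a symbol of ZNF plus a number. The set held 836 of the 16192 peaks of both lists, 315 of 8070 in HL60 and 521 of 8122 in HL60/MX2. These chromosomes were chosen by the peak counts themselves, as those with the highest HL60/MX2 to HL60 ratio, so the excess is a description of these lists and no test of it was made.

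HL60 (HL-60 in the labels, genotype WT) is a human promyelocytic acute myeloid leukemia line, and HL60/MX2 is its derivative, labelled as drug-resistant cells and known for resistance to mitoxantrone. Poly(A) mRNA of growing cultures was decapped, fragmented and enriched with an antibody against m7G, and stretches enriched over the input RNA were called as peaks. Each line gave 1 enriched library and 1 peak list; the input libraries were not analysed here, and peak lists hold no expression level against which a cell type marker could be checked. With no replicate, the spread between libraries is unknown, no p-value is given, and the 95% intervals (exact Clopper-Pearson for shares, order statistics for medians) cover counting error only.

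The m7G mark is best known as the cap at the 5' end of mRNA, where it protects the transcript and recruits the initiation factor eIF4E. It also occurs inside tRNA, rRNA and mRNA, and the METTL1-WDR4 complex writes it in a subset of tRNAs and at internal sites of mRNA. Chromosomes 19 and 22 are gene-dense and GC-rich, with ZNF genes in clusters. The median GC content of the exons was 58.4% in their 1677 other protein-coding genes, 43.3% in their 253 ZNF genes and 47.8% in the genes of the other autosomes outside ZNF.

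The sequences below show, for each list, the highest-scoring peaks of 60 to 250 bp that lay wholly in coding sequence in every isoform. They are examples, and in both lists some peaks with higher scores fell outside these limits. All are reference sequence of hg19 (GRCh37) read 5' to 3' on the strand of the gene, and capitals mark the 5-base motifs GGAAA and GGAAG. In HL60 the 3 peaks lay in UNC13A (a protein that primes synaptic vesicles), in DLL3 (an inhibitory Notch ligand) and in MUC16 (the cell surface mucin CA125).
UNC13A, exon 30 of 45, chr19:17740954-17741097, minus strand: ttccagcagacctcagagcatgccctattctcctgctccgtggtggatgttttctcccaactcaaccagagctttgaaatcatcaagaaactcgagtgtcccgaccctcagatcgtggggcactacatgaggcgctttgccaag
DLL3, exon 8 of 8, chr19:39998470-39998550, plus strand: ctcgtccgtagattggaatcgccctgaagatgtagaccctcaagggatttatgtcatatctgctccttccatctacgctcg
MUC16, exon 6 of 87, chr19:9068970-9069195, minus strand: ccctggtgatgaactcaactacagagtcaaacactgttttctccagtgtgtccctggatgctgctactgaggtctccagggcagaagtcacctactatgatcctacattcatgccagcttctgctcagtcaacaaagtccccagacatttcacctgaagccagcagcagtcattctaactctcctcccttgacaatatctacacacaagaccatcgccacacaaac
In HL60/MX2 the 3 peaks lay in CHAF1A (the large subunit of chromatin assembly factor 1), in SUPT5H (the SPT5 subunit of a transcription elongation factor) and in PPP1R37 (a regulatory partner of protein phosphatase 1).
CHAF1A, exon 5 of 15, chr19:4422563-4422792, plus strand: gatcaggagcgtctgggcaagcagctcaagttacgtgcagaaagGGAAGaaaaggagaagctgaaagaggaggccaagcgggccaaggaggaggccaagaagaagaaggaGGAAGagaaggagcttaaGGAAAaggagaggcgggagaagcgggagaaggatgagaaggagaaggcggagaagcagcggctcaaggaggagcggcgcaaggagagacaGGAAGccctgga
SUPT5H, exon 4 of 31, chr19:39943996-39944161, plus strand: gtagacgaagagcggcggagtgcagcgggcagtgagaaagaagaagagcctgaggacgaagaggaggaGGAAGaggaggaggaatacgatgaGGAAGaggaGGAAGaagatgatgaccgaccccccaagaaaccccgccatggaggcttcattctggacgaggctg
PPP1R37, exon 11 of 13, chr19:45648633-45648881, plus strand: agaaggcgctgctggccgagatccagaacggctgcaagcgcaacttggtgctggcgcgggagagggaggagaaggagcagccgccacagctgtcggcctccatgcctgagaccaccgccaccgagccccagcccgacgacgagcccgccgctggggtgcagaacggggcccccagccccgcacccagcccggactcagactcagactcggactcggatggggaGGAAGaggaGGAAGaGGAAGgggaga
The HL60/MX2 sequences held 4, 3 and 3 of these motifs and the HL60 sequences held 0. The UNC13A peak was listed in HL60/MX2 as well, with the same start and end, so it is not particular to HL60. Purines made up 80.4%, 73.5% and 60.2% of the HL60/MX2 sequences and 45.1%, 42.0% and 43.8% of the HL60 sequences. This contrast between 3 and 3 sequences did not extend to the set: in the central 100 bases of the peaks that long, a GGAAA or GGAAG stood in 56 of 189 HL60 windows (29.6%, 23.2 to 36.7) and in 95 of 324 HL60/MX2 windows (29.3%, 24.4 to 34.6). Of all 62486 exon windows of that length in the genes of the set, 24.4% held it. The search was on the strand of the gene, and the motif was taken up with earlier results of these data known.

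A further set shows start codons, because this was the mRNA region with the highest HL60/MX2 to HL60 ratio. Each line gives 30 bases with 12 before the start codon, which is in capitals, for the highest-scoring peaks that cover them. The HL60 peaks lay in MAG (a myelin glycoprotein), C22orf39, TSPAN16 (a tetraspanin), CEACAM16 (a protein of the inner ear) and AP1B1 (a subunit of a clathrin adaptor).
MAG, chr19:35786300-35786329, plus strand: tcgctgtacagaATGatattcctcacggca
C22orf39, chr22:19435194-19435223, minus strand: ggtcgcccagacATGgcggacggcagcggc
TSPAN16, chr19:11406962-11406991, plus strand: agtctgttcagcATGgctgaaatccacact
CEACAM16, chr19:45204715-45204744, plus strand: ttggggtgaaagATGgcgctgactgggtac
AP1B1, chr22:29763215-29763244, minus strand: taagggaccaaaATGactgactcaaaatat
The HL60/MX2 peaks lay in PDCD5 (a regulator of programmed cell death), RAB8A (a small GTPase of membrane traffic), PI4KA (a lipid kinase), GPR4 (a proton-sensing receptor) and NIPSNAP1 (a mitochondrial protein).
PDCD5, chr19:33072156-33072185, plus strand: tgacgccgagccATGgcggacgaggagctt
RAB8A, chr19:16222700-16222729, plus strand: agagagtgtaatATGgcgaagacctacgat
PI4KA, chr22:21212996-21213025, minus strand: gctcgtgaggtgATGgcggcggccccggcc
GPR4, chr19:46095107-46095136, minus strand: gaagtgcccaccATGggcaaccacacgtgg
NIPSNAP1, chr22:29977054-29977083, minus strand: tgcggctccaacATGgctccgcggctgtgc
The peaks over the HL60 start codons had GC contents of 46.4%, 63.9%, 45.2%, 57.9% and 43.5%. Those over the HL60/MX2 start codons had 71.4%, 59.3%, 75.7%, 65.6% and 74.8%, and only the RAB8A peak lay below the highest HL60 value.

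The excess was found on both chromosomes. HL60 had 216 peaks on chromosome 19 and 99 on chromosome 22, and HL60/MX2 had 355 and 166. HL60/MX2 peaks were therefore 62.2% (58.1 to 66.2) of those on chromosome 19 and 62.6% (56.5 to 68.5) of those on chromosome 22, at ratios of 1.64 and 1.68. The set as a whole had 206 more peaks in HL60/MX2, a ratio of 1.65. Outside ZNF genes the other 20 autosomes held 7338 and 7199 peaks, a ratio of 0.981, and the ZNF genes of chromosomes 19 and 22 held 93 and 86, a ratio of 0.925. As the chromosomes were picked for this ratio, the next ones in the order are given beside them: chromosome 16 followed with 199 and 270 peaks, a ratio of 1.36, and then chromosome 17 with 1.24.

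The order of the autosomes went with the GC content of their protein-coding exons. Chromosomes 22 (54.8%) and 19 (54.3%) had the highest exon GC of the 22 autosomes, followed by chromosome 16 (52.8%), chromosome 17 (51.8%) and chromosome 20 (51.2%). Across the 22 autosomes the peak ratio and the exon GC had a Pearson r of 0.893 and a Spearman rho of 0.799, and across the 20 without chromosomes 19 and 22 they had an r of 0.806 and a rho of 0.732. All points share the same pair of libraries, so these values describe the lists and are not replicated.

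**Figure D1:**
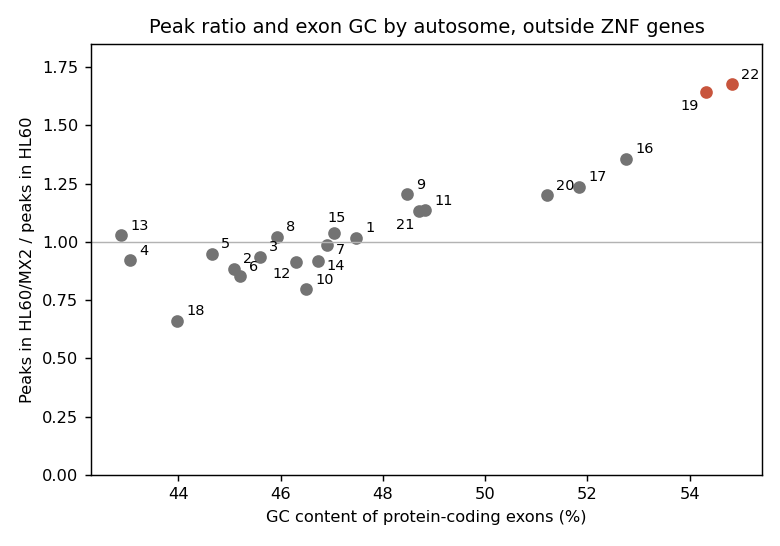
Ratio of HL60/MX2 to HL60 peaks outside ZNF genes (y axis) against the GC content of protein-coding exons in percent (x axis), 1 point per autosome with its number. Chromosomes 19 and 22 (red) sit at the upper right with ratios of 1.64 and 1.68, chromosome 16 is next at 1.36, and chromosome 18 is lowest at 0.661.

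The name of each peak carries a number that rises along the chromosome in steps above 1, so each list is part of a longer numbered series. On chromosomes 19 and 22, ZNF genes included, this number rose by 24307 in HL60 and by 23934 in HL60/MX2, a ratio of 0.985, against 0.826 on the other autosomes. Peaks of the set stood at 12.96 per 1000 numbers in HL60 and at 21.8 in HL60/MX2, while those of the other autosomes stood at 8.37 and 9.94. On these chromosomes the numbered series was not longer in HL60/MX2, and a larger share of it was listed. What was numbered is not given in the sources used here.

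Along the chromosomes the excess was spread over most windows. In windows of 5 Mb counted from the start of each chromosome, used here in place of cytogenetic bands, HL60/MX2 had more peaks in 15 of the 18 windows with any peak, HL60 had more in 2, and 1 was equal. The p arm of chromosome 19 had 76 HL60 and 159 HL60/MX2 peaks, a ratio of 2.09 and an HL60/MX2 share of 67.7% (61.3 to 73.6). On its q arm there were 140 and 196, a ratio of 1.40 and a share of 58.3% (52.9 to 63.7). The 4 windows of the first 20 Mb of chromosome 19 had 19 and 41, 20 and 44, 19 and 39, and 18 and 35 peaks. From 55 Mb to the end of chromosome 19, which holds the KIR genes and a part of the LILR and NLRP genes beside many ZNF genes, both lines had 24.

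The largest difference of any window lay on chromosome 22 between 35 and 40 Mb, with 15 HL60 and 40 HL60/MX2 peaks, or 34.5 and 92.1 per Mb of exon. HL60/MX2 peaks covered 30 genes there and HL60 peaks covered 15, and 3 genes had both: APOL2, HMOX1 (heme oxygenase 1) and POLR2F (a subunit shared by the RNA polymerases). Of all 1677 genes of the set, 17.8% had a peak in HL60/MX2 only, 9.96% in HL60 only and 5.61% in both. The window was picked for its difference and its genes without a peak were not counted, so its numbers are not read against these shares. Among the 27 genes with a peak in HL60/MX2 only were MYH9 (nonmuscle myosin heavy chain), SOX10 (a neural crest transcription factor), RBFOX2 (a splicing factor) and the cytokine receptor chains IL2RB and CSF2RB, named here after their values were seen. Among the 12 with a peak in HL60 only were 3 adjacent cytidine deaminases, APOBEC3A with a score of 616.96, APOBEC3B with 995.52 and APOBEC3C with 240.29, whereas APOBEC3F had its peak in HL60/MX2. These genes are close copies of each other, so the gene of such a peak is uncertain.

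**Figure D2:**
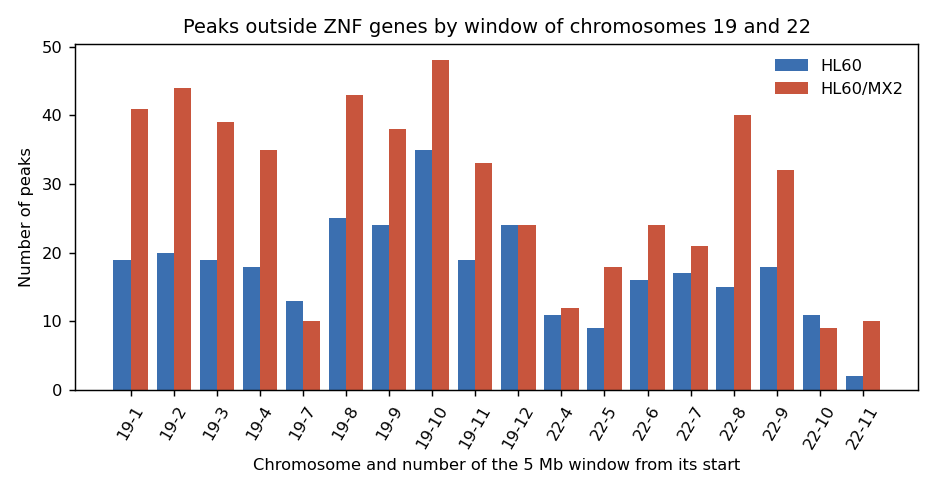
Number of peaks outside ZNF genes (y axis) in each 5 Mb window with any peak (x axis, chromosome and window number from its start), HL60 in blue and HL60/MX2 in red. Red bars are taller in 15 of 18 windows, with the widest gap in the eighth window of chromosome 22 (15 and 40 peaks).

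Peaks of HL60/MX2 in the set were richer in GC. The median GC of a peak was 52.2% (50.9 to 53.4) in HL60 and 57.1% (55.6 to 58.3) in HL60/MX2, and the intervals did not overlap. On chromosome 19 the medians were 52.1% and 58.3%, and on chromosome 22 they were 52.6% and 53.8%, with overlapping intervals of 49.0 to 53.7 and 52.1 to 56.3. Peaks with a GC content of 60% or more numbered 69 of 315 in HL60 (21.9%, 17.5 to 26.9) and 206 of 521 in HL60/MX2 (39.5%, 35.3 to 43.9). Those under 45% numbered 69 and 78. The same shift was present elsewhere: on the other autosomes the HL60 median was 45% and the HL60/MX2 median 47.5%, and 8.15% and 17.96% of peaks had a GC content of 60% or more.

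The ratio of the lines was highest in the GC-rich classes of peaks, without an even step from class to class. In the set it was 1.07 between 40 and 45% GC (41 and 44 peaks), 0.862 between 45 and 50% (58 and 50 peaks), 1.38 between 50 and 55% (72 and 99 peaks), 3.03 between 60 and 65% (30 and 91 peaks) and 2.25 between 70 and 75% (12 and 27 peaks). From 75% on there were 6 peaks in HL60 and 36 in HL60/MX2. The other autosomes gave 0.835, 0.856, 0.982, 1.69, 4.42 and 2.74 in these 6 classes, so the set was above them in most but below them between 70 and 75% GC. If the set had followed the ratio of the other autosomes, 315 HL60 peaks would have gone with 309.0 in HL60/MX2. With their ratio taken within each 5-point GC class it would have been 393.8, and the 521 observed were 1.32 times that number. With the GC of the whole gene's exons in place of that of the peak, 429.9 were reached against 501 peaks in genes, 1.17 times. The observed number was above the one reached in each of these calculations, for which no interval was computed. Because the chromosomes were picked for the highest ratio, the choice itself favours an observed number above these. The part of GC in the excess was not tested.

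Densities per exon showed which side of the GC range differed. Exons of the genes were cut into windows of 100 bases, 62486 in the set, with a median GC of 58%, and the central 100 bases of each peak that long were counted against them. At 70% GC or more, HL60 had 2.07 peak windows per 1000 exon windows (1.13 to 3.47) and HL60/MX2 had 8.44 (6.40 to 10.9). Between 65 and 70% the values were 0.940 and 4.70. Between 45 and 50% they were 4.89 (3.32 to 6.93) and 5.68 (3.98 to 7.85), with intervals that overlapped widely. In HL60 the density was 5.47 between 50 and 55% and 1.93 between 55 and 60%, and in HL60/MX2 it was 5.81 and 3.43. The other autosomes had 1.43 (1.09 to 1.86) and 8.97 (8.07 to 9.95) at 70% GC or more, intervals that overlapped those of the set. At the GC-poor end the other autosomes had fewer HL60/MX2 than HL60 windows (3.75 against 5.03 under 40% GC), whereas the set had 4.84 against 3.83, with intervals of 3.10 to 7.19 and 2.31 to 5.97 that overlapped.

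**Figure D3:**
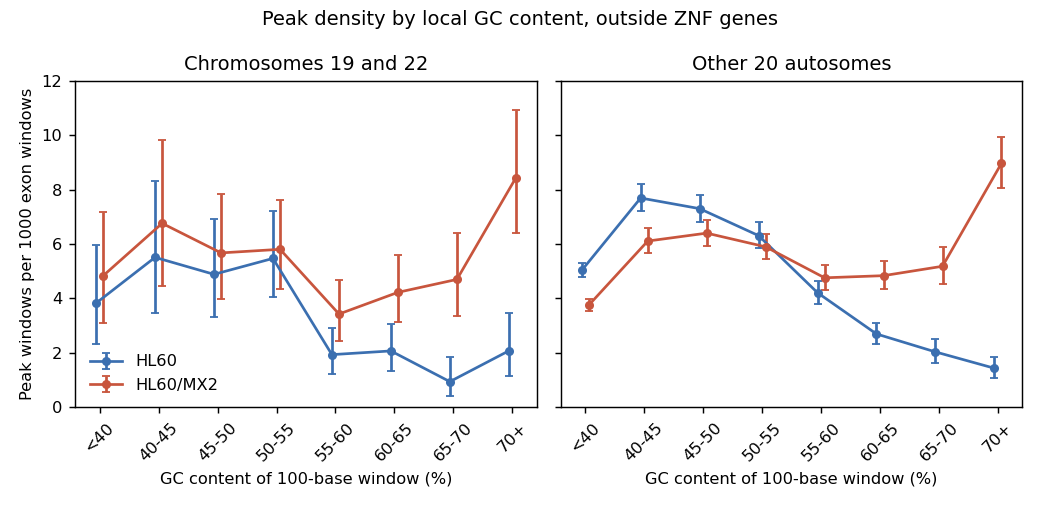
Peak windows per 1000 exon windows of 100 bases (y axis) by the GC content of the window in percent (x axis), with exact 95% intervals for counting error, HL60 in blue and HL60/MX2 in red. At 70% GC or more the set stood at 2.07 and 8.44 and the other 20 autosomes at 1.43 and 8.97.

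A GC-poor group of genes had an excess as well. The 75 genes of the set with under 45% GC in their exons held 15 HL60 and 32 HL60/MX2 peaks, a ratio of 2.13, whereas 6581 such genes elsewhere gave 0.855. Per Mb of exon the 75 genes had 38.6 HL60 and 82.3 HL60/MX2 peaks, and the 6581 genes had 85.5 and 73.1. Elsewhere 38.3% of such genes carried HL60 peaks and 35.8% carried HL60/MX2 peaks. Among the 75 genes these shares were 18.7% (10.6 to 29.3) and 32% (21.7 to 43.8), and the intervals overlapped. The share elsewhere lay above the HL60 interval of the 75 genes and within their HL60/MX2 interval. Of the 34 with a peak, 22 had more in HL60/MX2, among them PIWIL3 (a germline Argonaute protein) with 1 and 3 peaks, FAM227A with 0 and 3, and DMC1 (the meiotic recombinase) with 0 and 2. In 10 there were more in HL60, among them GRK3 with 2 and 0, TNRC6B (a partner of Argonaute proteins) with 1 and 0 and UBA2 (a subunit of the SUMO-activating enzyme) with 1 and 0, and 2 were equal. In genes of 45 to 50% GC the counts were 61 and 59, and the ratio was 1.97 between 55 and 60% (86 and 169 peaks) and 2.25 from 60% on (63 and 142 peaks).

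The excess differed between regions of the mRNA. Each peak was placed on the longest coding transcript of its gene, where bases within 100 nt of the start or stop codon formed separate classes. This placed 253 HL60 and 427 HL60/MX2 peaks. Around the start codon lay 26 HL60 and 71 HL60/MX2 peaks, a ratio of 2.73. The 5'UTR had 15 and 28 (1.87), the CDS had 141 and 227 (1.61) and the 3'UTR had 51 and 82 (1.61). Around the stop codon the counts were 20 and 19, and no excess was present there. That class took 7.91% (4.90 to 11.9) of the placed peaks in HL60 and 4.45% (2.70 to 6.86) in HL60/MX2, with overlapping intervals. No interval was given to the ratios of the regions. The start codon took 10.3% (6.82 to 14.7) of the placed peaks in HL60 and 16.6% (13.2 to 20.5) in HL60/MX2, and these intervals overlapped.

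The 5' end, which joins the start codon class to the 5'UTR, held 41 peaks in HL60 (16.2%, 11.9 to 21.3) and 99 in HL60/MX2 (23.2%, 19.3 to 27.5). These intervals overlapped. The 5' end made up 8.09% and 8.23% of the length of the transcripts involved. On the other autosomes its share went from 9.77% to 16.8%. Outside the 5' end the set had 274 and 422 peaks, a ratio of 1.54, and the other autosomes had 6752 and 6217, a ratio of 0.921. The CDS accounted for 86 of the 206 additional peaks, and it made up 53.7% (HL60) and 55.4% (HL60/MX2) of the transcript length. With the ratio of each mRNA region taken from the other autosomes, 327.6 HL60/MX2 peaks would have been reached, and with GC class and region together 395.7. No interval was computed for these numbers either, and the choice of the chromosomes bears on them too.

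The difference in GC content between the lines varied by region. At the 5' end HL60 peaks had a median GC of 54.3% and HL60/MX2 peaks one of 64.2%, and in the 3'UTR the medians were 48.6% and 50.4%. Around the stop codon, where no excess was present, they were 50.9% and 59.8%. The first exon of the transcript held 32 of 253 placed peaks in HL60 (12.6%, 8.81 to 17.4) and 82 of 427 in HL60/MX2 (19.2%, 15.6 to 23.3), with overlapping intervals. The RNA had been decapped before enrichment, and how much cap was left was not measured in the files used here, so its part in the 5' end peaks was not tested.

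**Figure D4:**
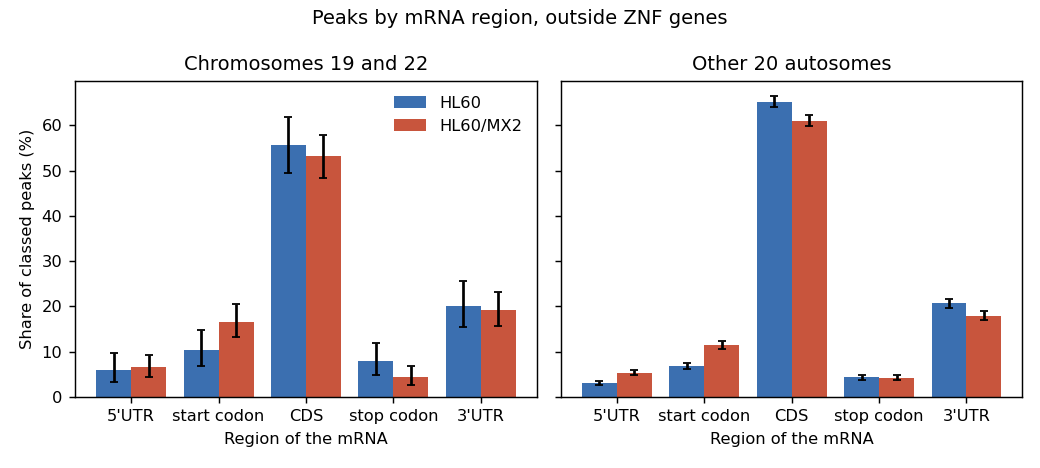
Share of placed peaks in percent (y axis) by region of the mRNA (x axis), HL60 in blue and HL60/MX2 in red, with exact 95% intervals for counting error. In the set the start codon class went from 10.3% to 16.6% and the CDS class was 55.7% and 53.2%.

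The scores of HL60/MX2 peaks in the set were not low within their own list. The score is the value the authors deposited for each peak on a scale that is not stated, so it was read only as a rank within a list. The median member stood at percentile 43.4 of the HL60 list (38.6 to 48.1), at a score of 169.34 against 196.77 for the list. In HL60/MX2 it stood at percentile 54.1 (48.2 to 59.6), at 290.38 against 259.66. In the highest quartile of the list were 69 HL60 members (21.9%, 17.5 to 26.9) and 150 HL60/MX2 members (28.8%, 24.9 to 32.9). The ratio of the lines was 2.17 in the highest quartile, 1.89 in the next, 1.21 in the second and 1.53 in the lowest, against 0.942 to 1.02 on the other autosomes.

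The GC-rich members did not have the highest median rank, though single ones among them reached the highest score of their list. At 60% GC or more the median percentile was 40.7 in HL60 and 47.3 in HL60/MX2. Between 40 and 50% GC it was 43.4 in HL60 (99 peaks) and 64.8 in HL60/MX2 (94 peaks), while the other autosomes had 51.0 and 49.9 in that class. Under 40% GC the members had 47.6 in HL60 and 51.0 in HL60/MX2, and between 50 and 60% they had 44.3 and 55.5. No interval is given for these medians.

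**Figure D5:**
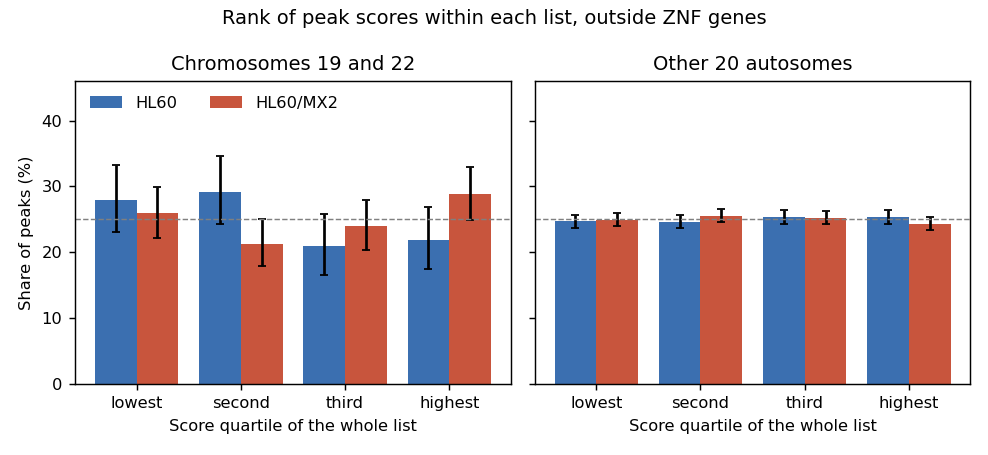
Share of peaks in percent (y axis) in each quartile of the score of the whole list (x axis), HL60 in blue and HL60/MX2 in red, with exact 95% intervals for counting error and a dashed line at 25%. HL60/MX2 members of the set reached 28.8% in the highest quartile and HL60 members 21.9%, and the other 20 autosomes stood close to the line.

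The score of 3100, the highest in the HL60/MX2 list, was given to 6 members there and to 0 HL60 members. Over the whole lists it was given to 53 of 8122 HL60/MX2 and 8 of 8070 HL60 peaks. The 6 were the CHAF1A and SUPT5H peaks shown above, the PDCD5 start codon peak, and peaks in HNRNPL, CEACAM20 and ZSWIM9. The HNRNPL peak covered 411 bp of exon 1 with a GC content of 76.9%. HNRNPL is an RNA-binding protein of splicing, and CEACAM20 belongs to the carcinoembryonic antigen family, whose close copies make the gene of a peak uncertain. The 5 highest HL60 scores were 2379.84 for a peak over no protein-coding exon (chr22:18744980-18745065), 2209.78 in LMTK3 (a kinase), 1713.3 in WDR87, 1165.96 in PCSK4 (a proprotein convertase of germ cells) and 1110.73 in UNC13A. The PCSK4 peak was 7 bp long.

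Few positions were common to the lists. In each list 23 members shared 1 bp or more with a member of the other on that strand, which was 7.30% (4.68 to 10.8) of the HL60 and 4.41% (2.82 to 6.55) of the HL60/MX2 members. On the other autosomes 6.08% and 6.20% were shared. The longest overlaps were 363 bp in BCAM (the Lutheran adhesion glycoprotein), 315 bp in POTEH, 262 bp in C19orf84 and 222 bp in CEACAM7, and POTEH has near-identical copies. A shared peak of LMTK3, PPFIA3 (a liprin scaffold) and PLEKHA4 and 1 of the 2 in UNC13A had the same start and end in both lists. The UNC13A peak printed above had percentiles of 98.8 and 98.6 in the HL60 and HL60/MX2 lists and was high in both, whereas the C19orf84 peak had 7.76 and 99.3 and was near opposite ends. Median lengths were 121 bp (108 to 141) in HL60 and 138 bp (126 to 156) in HL60/MX2, with overlapping intervals.
CYP4F22 (a fatty acid hydroxylase of skin), exon 11 of 14, the shared coding peak as listed in HL60/MX2, chr19:15658919-15659052, plus strand: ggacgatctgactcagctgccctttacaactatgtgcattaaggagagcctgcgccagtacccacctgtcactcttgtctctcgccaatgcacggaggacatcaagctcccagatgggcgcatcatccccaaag
KIAA1671, exon 6 of 13, likewise, chr22:25445197-25445306, plus strand: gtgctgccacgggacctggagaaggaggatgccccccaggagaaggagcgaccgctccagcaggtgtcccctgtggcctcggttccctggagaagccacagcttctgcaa
Both shared peaks started at the same base in both lists and ended further on in HL60/MX2, and both held 0 of the motifs GGAAA and GGAAG.

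By gene, more genes of the set had a peak in HL60/MX2 alone than in HL60 alone. The set covers 1677 protein-coding genes outside ZNF, of which 167 (9.96%, 8.57 to 11.5) had HL60 peaks alone, 299 (17.8%, 16.0 to 19.7) in HL60/MX2 only and 94 (5.61%, 4.55 to 6.82) in both. Over all 20163 protein-coding genes these shares were 14.4%, 16.5% and 12%. The HL60/MX2-only share of the set was near that of all genes, and the HL60-only and common shares were below it. Because these counts come from the contrast that chose the chromosomes, they are read as a description. Of the 560 genes with a member, 328 had more peaks in HL60/MX2, 175 had more in HL60 and 57 had equal numbers. Most genes had 1 peak, 229 of 261 in HL60 (87.7%) and 318 of 393 in HL60/MX2 (80.9%). Genes with at least 5000 bp of exon had an HL60/MX2-only share of 27.6% and an HL60-only share of 10.8%, and those under 2000 bp had 9.93% and 6.70%. Those from 2000 bp to under 5000 bp had 15.5% and 11.1%.

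The 10 genes with the most peaks showed the difference to unequal degrees. MUC16 had 9 HL60 and 12 HL60/MX2 peaks, all in the CDS, with scores from 51.35 to 656.62 and from 72.61 to 2399.87. Its longest peak, of 1468 bp in exon 6, was in HL60/MX2, and 1 of its 9 HL60 peaks overlapped an HL60/MX2 peak. UNC13A had 2 and 6 peaks. Both of its HL60 peaks were shared, and the additional HL60/MX2 peaks included 1 at the start codon with a GC content of 70.4%.

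KANK2, an adaptor of focal adhesions, had 0 peaks in HL60 and 5 in HL60/MX2, from the 5'UTR of exon 1 (score 1853.19, GC 81.9%) through exon 9 to the stop codon. ADGRE2, an adhesion receptor of myeloid cells, and CECR2, a bromodomain protein of chromatin remodelling, each had 1 and 4. KIAA1671 had 3 and 3, and FBN3, a fibrillin, had 2 and 2. In the opposite direction stood ADAMTSL5, a secreted matrix protein, with 3 and 2, CEP89, a centriolar protein, with 3 and 2, and MEI1, which acts in meiotic break formation, with 3 and 1. The single HL60/MX2 peak of MEI1 had a score of 2242.56.

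Among genes with peaks in HL60/MX2 only, KANK2 had the most with 5, and those with 3 included FAM227A, NLRP2 (an NLR family protein), RYR1 (the calcium release channel of skeletal muscle), TOM1 (an endosomal sorting protein) and ZC3H7B (an RNA-binding protein). The 6 genes with 3 peaks had highest scores from 203.49 to 809.33. A further 32 genes had 2 peaks, with highest scores from 78.52 to 3100, and CHAF1A, ZSWIM9 and PPP1R37 had the highest of these. Among genes with peaks in HL60 only, none had more than 2, and 17 had 2, with highest scores from 90.44 to 748.19. The 10 of them with the highest scores were DLL3, CEACAM5 (carcinoembryonic antigen), PPP1R13L (iASPP, an inhibitor of p53), TBC1D22A, LYPD4, PKDREJ, DMKN (dermokine), NLRP11, NLRP5 and GRK3 (a receptor kinase).

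Gene lists, drawn up with earlier results of these data known, are given beside the 9.96%, 17.8% and 5.61% of all genes of the set. For genes of chromatin and transcription, 2 of 53 had a peak in HL60 only, 20 (37.7%) in HL60/MX2 only and 5 in both, with 7 and 29 peaks. Among those in HL60/MX2 only were ARID3A (score 77.42), CARM1 (679.02), CBX7 (110.9) and DNMT1 (538.61). CARM1 methylates histone arginines, CBX7 is a Polycomb subunit and DNMT1 maintains DNA methylation. The HL60-only genes were MED15, a Mediator subunit, and PRMT1, an arginine methyltransferase. The genes of this list are long, with a median exon length of 6374 bp where all genes of the set had 3461 bp, and those of the RNA-binding, cytoskeleton and matrix lists below are long too, with medians of 5606, 8561 and 7040.5 bp. As genes of 5000 bp or more had an HL60/MX2-only share of 27.6%, the part of length in the shares of these lists was not tested.

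Of 33 genes for splicing and RNA binding, 1 had an HL60 peak alone and 9 had HL60/MX2 peaks alone, with 1 and 13 peaks. CELF5 (189.79) was the HL60 gene, and CNOT3 (a deadenylase subunit, 2 peaks, up to 78.52), EWSR1 (80.85), HNRNPL (3100) and HNRNPM (1175.05) were among those of HL60/MX2. Of 21 DNA repair and replication genes, 1 had a peak in HL60 only, 6 in HL60/MX2 only and 2 in both, with 6 and 11 peaks. The checkpoint kinase CHEK2 had 2 peaks in HL60 (72.58 and 110.95), and CHAF1A (2 peaks, up to 3100), DMC1 (2 peaks, up to 390.33) and the excision repair gene ERCC1 (1497.55) were among those of HL60/MX2. In both of these groups HL60-only genes were fewer than HL60/MX2-only genes, as they were in the whole set (167 and 299). The HL60/MX2-only shares were 27.3% and 28.6%, near the 27.6% of genes with at least 5000 bp of exon. The DNA repair and replication genes had a median exon length of 4326 bp.

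Of 25 genes of the cytoskeleton and its motors, 1 had a peak in HL60 only, 8 in HL60/MX2 only and 3 in both, with 4 and 13 peaks. ARHGEF18 (a guanine nucleotide exchange factor, up to 1758.15), CLTCL1 (a clathrin heavy chain, 64.42) and MYBPC2 (616.88) were HL60/MX2 only, and KLC3 (a kinesin light chain) and MICAL3 had a peak in each list. Of 20 matrix and adhesion genes, 1 had a peak in HL60 only (FBLN1), 6 in HL60/MX2 only and 8 in both, with 18 and 30 peaks. BCAM, CELSR1 (a cadherin of planar polarity), COL5A3 (a collagen chain) and FBN3 were among the 8, so this was a list with more genes in common.

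In other lists the counts were closer. Of 74 leukocyte receptors and granule proteins, 11 had a peak in HL60 only, 18 in HL60/MX2 only and 5 in both, with 18 and 28 peaks. ADGRE3 (170.14) and the APOBEC3A, APOBEC3B and APOBEC3C peaks given above were HL60 only, as were 7 others, among them FPR3, CEACAM3, CEACAM6 and SIGLEC9. CD33 (83.7), FPR1 (the formyl peptide receptor, 222.79) and TYROBP (a signalling adaptor, 157.87) were HL60/MX2 only, and these and the HL60-only names other than ADGRE3 and the deaminases were picked after their values were seen. Of 37 kinases and partners, 4, 5 and 4 had a peak in HL60 only, HL60/MX2 only and both. CSNK1E was HL60/MX2 only, GRK3 and HIPK4 HL60 only, and LIMK2 and MAP4K1 had peaks in both. Of 35 channels and transporters the numbers were 6, 7 and 4, with CACNG2 among those in HL60 only, GRIK5 (up to 1250.78) in HL60/MX2 only, and the calcium channels CACNA1A and CACNA1I in both.

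Of 38 cytochrome P450, kallikrein and pregnancy-specific glycoprotein genes, 6, 9 and 3 had a peak in HL60 only, HL60/MX2 only and both, with 9 and 14 peaks. CYP2B6 and CYP2F1 were HL60 only, CYP2A7 and CYP2D6 HL60/MX2 only, and CYP2A6 had a peak in each. These families hold close copies, so the gene of a peak is uncertain. Of 25 zinc finger and KRAB genes without a ZNF number, 3 had a peak in HL60 only, 3 in HL60/MX2 only and 3 in both, with 6 and 10 peaks. ZFP14 was in HL60 only, KLF2, ZBTB45 and ZC3H7B in HL60/MX2 only, and ZIK1 in both. Of 20 ribosomal protein and translation factor genes, 1 had a peak, EIF4ENIF1 (the eIF4E transporter 4E-T, 144.22) in HL60.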

How the data were processed

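Paired-end reads of m7G-enriched mRNA had been trimmed, aligned to hg19, used for peak calling with MACS and reduced to peaks over exons of protein-coding genes by the authors. The submitters' processing notes name cutadapt 1.9.3, HISAT2 2.0.4 and STAR, and the version and settings of MACS are not given in the sources used here. The 6 columns of each deposited list give the position, a numbered name, the authors' score and the strand, and the scale of the score is not stated. Without read counts the depth is unknown, and precision is limited by how many peaks there are. The input libraries were not analysed here.

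Starts were shifted by 1 to count from 1. The build was checked by the length of chromosome 1 (249250621 bp). Genes were those of GENCODE release 44 on GRCh37. No test was run, since each line has 1 library. Genes named were the 10 with the most peaks in all, in HL60/MX2 only and in HL60 only, those of the 5 highest scores per list and the 5 longest shared peaks, and up to 5 per gene list in alphabetical order, a few of which are not reported here. The members, lists and motifs were chosen with earlier results of these data known. Alternatives covered the score, peak length, ZNF rule, gene assignment, windows, GC classes, region classes and overlap. Scripts were tested on simulated data and used matplotlib 3.10.9, scipy 1.17.1, numpy 2.4.6 and Python 3.11.15.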

Additional observations from a re-analysis of the deposited data

How the results depend on the processing

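The HL60/MX2 share of peaks, 62.3%, stayed between 59.8% and 62.8% when short peaks, the window of largest difference or the 5' end were left out, 1 chromosome was used, genes were counted or the ZNF rule was changed, and was 67.4% among scores at or above the median of each list. That restriction left 79 genes with a peak in HL60 only, 193 in HL60/MX2 only and 36 in both, as fewer peaks were counted. The counts outside the 5' end, GC class with region, leaving out only symbols of ZNF with a number and nothing more, the median GC of peaks of at least 50 bp and windows of 10 Mb were chosen after seeing the data. Windows of 10 Mb had more HL60/MX2 peaks in 100% of cases against 83.3% at 5 Mb. With the GC of the gene's exons the HL60 median was 54.6%, against 57.1% in HL60/MX2, so the lines differed less by gene than by peak. With a position in any isoform, 30.4% of HL60 and 36.1% of HL60/MX2 peaks were at the 5' end, and with 50 nt around the codons the HL60/MX2 share was 18.7%. Among scores at or above the median of each list the 5' end shares were closer, 20.6% (13.4 to 29.5) in HL60 and 22.4% (17.1 to 28.5) in HL60/MX2. An overlap of at least 50% left 3.49% of HL60 and 2.11% of HL60/MX2 peaks shared. Where these values moved beyond what the setting itself removes, the cause was not tested. Of 43 alternatives, 32 stayed within the counting interval or within 1.5 times the main count, and none turned a direction. No paired analysis was possible because each cell line has 1 library. Without read counts or a replicate, neither the depth of a peak nor the spread between libraries could be measured, and a gene without a listed peak is not shown to lack m7G.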

Other observations

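Of the central 100-base windows of peaks in the set, the printed ones included, 11.6% (7.44 to 17.1) in HL60 and 17.0% (13.1 to 21.5) in HL60/MX2 had at least 60% purines, with overlapping intervals, against 11.7% of the exon windows of the same genes. On the other autosomes these shares were 13.7% and 17.1%. Within HL60/MX2 the share was 22.3% (14.4 to 32.1) in the lowest score quartile and 15% (8.65 to 23.5) in the highest, with overlapping intervals, so the purine-rich CHAF1A and SUPT5H peaks at the top score were not typical of high-scoring peaks.

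The 5-base motifs CTGGA or CTGGG or CTGTA or CTGTG, searched on the strand of the gene, stood in 62.4% (55.1 to 69.4) of the HL60 windows and in 54.9% (49.3 to 60.4) of the HL60/MX2 windows, against 61.2% of the exon windows. The share of members that took up a whole exon was 25.7% (20.98 to 30.9) in HL60 and 28.6% (24.8 to 32.7) in HL60/MX2. Peaks over exons of more than 1 gene numbered 5 and 14.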
